A study of Mus musculus with 4 samples.

Results

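The cells described here are B-lineage cells in the blood of the mouse strain SM/J that carry transcripts of Fras1 and Lmo7, genes better known from epithelia than from lymphocytes. The study profiled peripheral blood mononuclear cells (PBMCs) of 2 inbred mouse strains, SM/J and BL/6, at 12 and 20 months of age, with no treatment or engineered allele named in the labels. Blood was drawn from the heart and PBMCs were separated on a Lymphoprep gradient, with a slow spin against platelets and a lysis step against red cells. RNA was counted with the 10x Genomics 3' single-cell assay, in which each captured molecule carries a unique molecular identifier (UMI). Both ages of a strain were multiplexed in 1 sample with cell multiplexing oligos (CMO tags), and 3 tagged aliquots made up each age. The labels do not say whether an aliquot is an animal, so each strain and age was treated as 1 library, nothing was tested between libraries, and intervals cover counting error only.

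A cell was a member when it held at least 3 UMIs of Fras1 and Lmo7 together, at least 1 UMI of Cd79a (the signalling chain of the B cell receptor), fewer than 5 UMIs of Zcwpw1, and none of Cd3e (T cells) or Csf1r (monocytes). Cells with under 500 UMIs, under 200 genes or over 10% mitochondrial UMIs were dropped first. This rule found 311 members at 12 months and 118 at 20 months, 429 of the 5138 SM/J cells kept and of the 11721 kept in all. They were set against the other SM/J B cells, defined by at least 2 Cd79a UMIs, which numbered 994 at 12 months and 1546 at 20 months. At 20 months, 922 of those other B cells held 5 or more Zcwpw1 UMIs and 624 held fewer. At 12 months only 24 did, so the comparison group itself differed between the ages. Because the rule capped Zcwpw1 in members, each comparison was also made against the other B cells with Zcwpw1 under 5. Beside the members, cells with at least 2 Cd3e UMIs and no Cd79a gave the level of free RNA in a cell type that should lack B cell transcripts (222 T cells at 12 months and 140 at 20 months).

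Fras1 encodes a large extracellular matrix protein that anchors epithelia to their basement membrane together with the Frem proteins. Lmo7 encodes a LIM-domain protein of adherens junctions that binds actin-linked partners and can also act in the nucleus. A B cell assembles its receptor from a heavy chain and a light chain, and it normally keeps a single light chain locus in use, kappa (constant segment Igkc) in most mouse B cells and lambda (constant segments Iglc1, Iglc2 and Iglc3) in a small minority. Cells descended from a single B cell share the same rearranged V segments. B-1 cells are a self-renewing B cell class found mainly in body cavities, whereas follicular B cells recirculate through blood and lymphoid organs.

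The light chain segments that set the 12-month members apart are shown first, since 2 pairs of them are close copies and reads of 1 copy could be assigned to the other. The sequences are 150-base stretches of the reference coding sequence (C57BL/6J genome, GRCm38, GENCODE M21), all on the minus strand of chromosome 16 and read 5′ to 3′. In the constant segments, capitals mark, in each of the 3, every position at which they are not all equal. Over the 314 aligned coding bases, Iglc1 shared 73.2% of bases with Iglc2 and 73.9% with Iglc3, whereas Iglc2 and Iglc3 shared 96.5% and differed at 11 positions. Iglc2 and Iglc3 counts are therefore uncertain relative to each other. SM/J sequences of these segments were not used here, so how well reads of SM/J cells separate between the segments was not tested.
Iglc1, chr16:19061890-19062039: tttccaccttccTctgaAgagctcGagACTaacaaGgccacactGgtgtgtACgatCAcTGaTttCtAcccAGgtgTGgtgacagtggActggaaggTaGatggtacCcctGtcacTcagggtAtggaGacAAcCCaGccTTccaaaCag
Iglc2, chr16:19198671-19198820: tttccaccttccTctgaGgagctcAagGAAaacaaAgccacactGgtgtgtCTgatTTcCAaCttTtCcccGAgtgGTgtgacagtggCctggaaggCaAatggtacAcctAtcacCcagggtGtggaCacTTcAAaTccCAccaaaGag
Iglc3, chr16:19065500-19065649: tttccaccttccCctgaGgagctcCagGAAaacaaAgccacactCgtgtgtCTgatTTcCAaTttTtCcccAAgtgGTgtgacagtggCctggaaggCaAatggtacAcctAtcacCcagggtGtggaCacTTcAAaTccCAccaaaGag

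The variable segments Iglv2 and Iglv1, which supply the antigen-binding part of the lambda chain, shared 96.9% of their 351 coding bases and differed at 11. In these stretches from the end of each coding sequence, capitals mark the bases that differ, and calls between the pair are uncertain for the same reason.
Iglv2, chr16:19260401-19260550: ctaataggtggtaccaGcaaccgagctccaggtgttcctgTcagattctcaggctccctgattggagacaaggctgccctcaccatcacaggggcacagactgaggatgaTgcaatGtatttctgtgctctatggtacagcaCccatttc
Iglv1, chr16:19085017-19085166: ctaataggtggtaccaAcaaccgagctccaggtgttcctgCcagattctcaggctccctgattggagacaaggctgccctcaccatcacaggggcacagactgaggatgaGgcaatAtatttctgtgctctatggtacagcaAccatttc

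The 4 libraries held 18234645, 19466469, 14250603 and 30627357 gene UMIs (BL/6 at 12 and 20 months, then SM/J at 12 and 20 months). Members were deep cells, with a median of 7813 UMIs at 12 months and 7570.5 at 20 months. The other B cells had a median of 3546 UMIs at 12 months and 10164 at 20 months, and T cells 4823 and 4497.5. The median mitochondrial share was 6.42% and 6.61% in members against 4.72% and 5.63% in the other B cells. No cell barcode was shared between the 2 SM/J ages (0 shared), and a doublet caller marked 0 members. A gene's level is given in CPM, its UMIs per 1000000 UMIs summed over a group of cells. Ratios are log2 of (CPM + 1) between groups, and the bracketed intervals are exact 95% counting intervals of the plain CPM ratio.

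Members made up a larger part of SM/J blood at 12 than at 20 months and were rare in BL/6. At 12 months they were 12.8% of kept cells (exact interval 11.5 to 14.2) and 23.8% (21.5 to 26.2) of B cells. At 20 months they were 4.35% (3.62 to 5.19) of kept cells and 7.09% (5.90 to 8.43) of B cells. The aliquots at 12 months held 15.1%, 12.0% and 11.8% members and those at 20 months 3.00%, 4.24% and 5.60%, so the 2 sets of aliquots did not overlap. In BL/6 the same rule kept 12 cells at 12 months (0.349%, 0.180 to 0.609) and 8 at 20 months (0.254%, 0.110 to 0.501).

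The size of these shares depends on the rule. A mitochondrial limit of 5% instead of 10% left 46 and 14 members, 2.90% and 1.10% of the cells then kept. Applying the rule after thinning every cell to 2000 UMIs, so that depth is equal, gave 3.02% and 1.06%. The share was larger at 12 than at 20 months under both settings. The distance between the ages rests largely on the Zcwpw1 limit, however. Without it, a setting chosen after seeing the data, 315 cells (13.0%) met the rule at 12 months and 291 (10.7%) at 20 months.

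**Figure D1:**
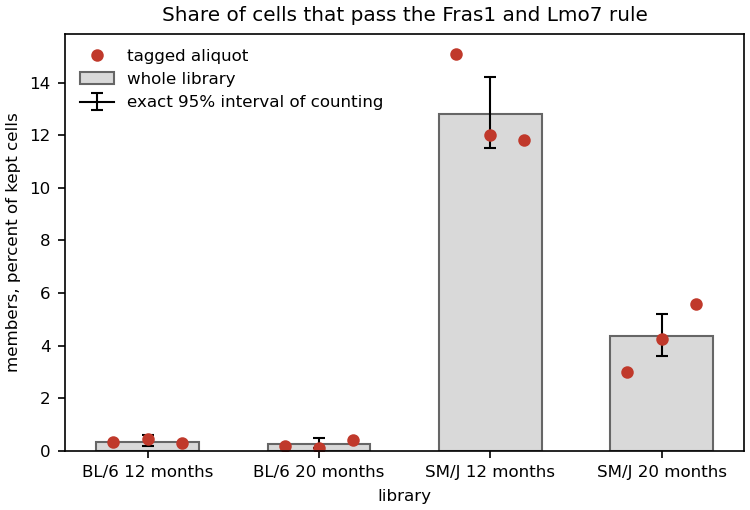
Percent of kept cells that were members, by strain and age. Bars give the library share with its exact 95% counting interval and points give the 3 tagged aliquots. SM/J aliquots lie between 11.8% and 15.1% at 12 months and between 3.00% and 5.60% at 20 months, and BL/6 aliquots between 0.109% and 0.439%.

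Fras1 and Lmo7 chose the members, so their levels are given as a description only. At 12 months Fras1 was the main contributor. It was found in 94.9% of members (295 cells), with a median of 5 and a highest value of 28 UMIs per cell, and stood at 720.1 CPM against 56.5 CPM in the other B cells and 7.40 CPM in T cells (4.05% of T cells). Lmo7 was found in 58.2% of 12-month members (median 1, highest 16 UMIs), at 194.1 CPM against 24.6 in other B cells and 0.823 in T cells. At 20 months the balance between the genes differed. Fras1 was then in 75.4% of members at 338.0 CPM, and Lmo7 in 81.4% at 334.0 CPM, each with a median of 3 UMIs. Both genes were detected in 165 members at 12 months, with 130 holding only Fras1 and 16 only Lmo7. At 20 months 67 members held both, 22 only Fras1 and 29 only Lmo7.

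The comparison cells were not uniform for these genes at 20 months. Other B cells with 5 or more Zcwpw1 UMIs carried Fras1 at 194.1 CPM but Lmo7 at only 1.07 CPM, and those with fewer carried 19.2 and 24.8 CPM. Of the cells with high Zcwpw1, 35.4% held a Fras1 UMI against 75.4% of members. In BL/6 B cells outside the rule Fras1 stood at 2.66 CPM at 12 months and gave 0 UMIs at 20 months, where 3 UMIs would be 0.662 CPM. Lmo7 stood at 12.0 and 11.3 CPM there. Of the 12 BL/6 cells that met the rule at 12 months all held Lmo7 alone, with 3 UMIs each, and 7 of the 8 at 20 months held Lmo7 alone.

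**Figure D2:**
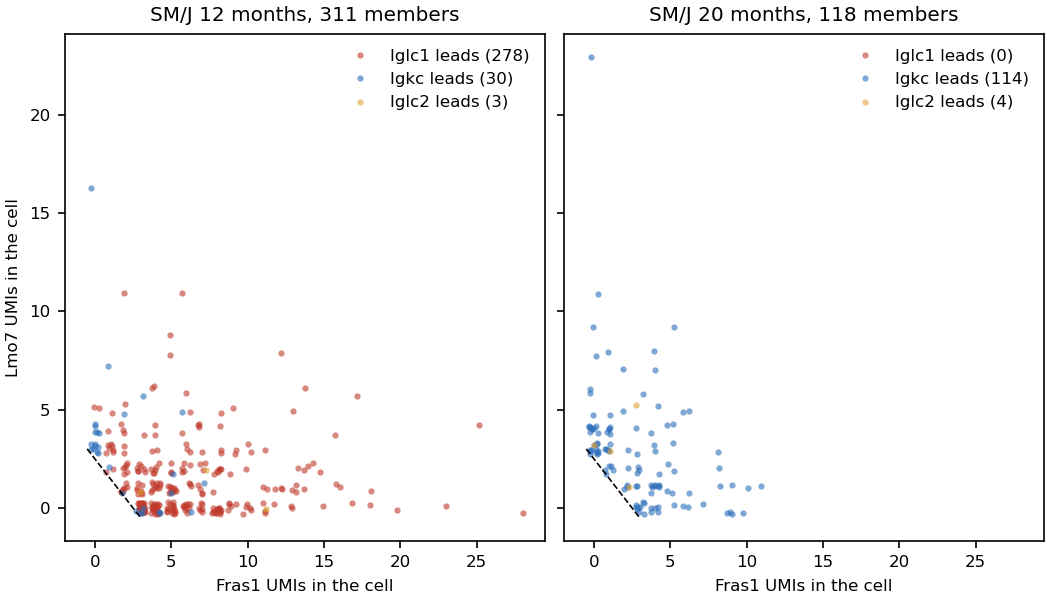
Fras1 against Lmo7 UMIs in each of the 311 members at 12 months and 118 at 20 months, with points jittered for sight and coloured by the light chain constant segment with most UMIs. The dashed line marks a sum of 3 UMIs, the limit of the rule; 130 members hold Fras1 only at 12 months, and Iglc1 leads 278 cells there and 0 at 20 months.

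Cells just inside and just outside the limit were both mostly Iglc1 cells at 12 months. With a sum of 2 UMIs, 81 cells failed only on this count, had a median of 6069 UMIs, and 61 of them used mostly Iglc1. With a sum of 3 UMIs, 53 cells passed, had a median of 7058 UMIs, and 39 used mostly Iglc1. At 20 months 41 cells had a sum of 2 and 31 a sum of 3, with 1 and 0 led by Iglc1. The Zcwpw1 limit left out 4 further cells at 12 months and 173 at 20 months.

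The members' B cell identity held at both ages, while 2 of the 4 markers given for them did so only at 12 months. The summed level of 11 B cell identity genes was 9996.8 CPM in members at 12 months (13655.8 in other B cells) and 12801.6 CPM at 20 months (11242.3 in other B cells), against 212.2 and 308.1 in T cells. Of the T cell list, Cd4 and Cd8a gave 0 UMIs at both ages, where 3 UMIs would be 1.22 CPM at 12 months and 2.97 CPM at 20 months. The summed T cell list stood at 40.1 and 16.8 CPM in members against 3057.0 and 2929.2 in T cells. Lck, a kinase gene of that list, was 26.3 against 11.1 CPM in other B cells at 12 months (1.18, 0.71 to 1.79), with 255.8 CPM in T cells. Monocyte genes summed to 148.7 CPM (aliquots 144.4 to 154.1) at 12 months and 169.5 CPM (138.1 to 204.2) at 20 months, against 618.3 and 516.5 CPM in the other B cells. Members lack Csf1r and Cd3e by rule, and other B cells filtered in the same way held 249.6 CPM (245.2 to 250.2) and 206.2 CPM (172.4 to 248.9), so that the aliquots overlapped at 20 months. Platelet and erythroid genes summed to 91.2 CPM in 12-month members and to 6193.6 CPM (76.7 to 14695.2) in 20-month members, where a single cell held 3457 of the 3485 Hbb-bs UMIs. In other B cells these genes summed to 2657.2 and 203.4 CPM. Iglc1 and Iglv2, however, marked the members at 12 months only, as the next paragraphs show, so the cells of the 2 ages share the rule but not that light chain.

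At 12 months the members were predominantly lambda B cells that used Iglc1. A cell is called led by the constant segment with most of its light chain UMIs, given at least 3. Iglc1 led 278 of 311 members (89.4%, 85.4 to 92.6; aliquots 89.5%, 86.0% and 92.7%), Igkc led 30 (9.65%) and Iglc2 led 3. Among the other B cells of the same library Iglc1 led 157 of 987 (15.9%, 13.7 to 18.3; aliquots 19.5%, 13.8% and 14.9%) and Igkc led 786. The aliquots of members and of other B cells did not overlap. In BL/6 B cells outside the rule the Iglc1-led share was 2.75% at 12 months and 2.97% at 20 months, and none of the 12 and 8 BL/6 cells inside it was led by Iglc1 (upper limits 26.5% and 36.9%).

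At 20 months the members were kappa B cells. Igkc led 114 of 118 (96.6%, 91.5 to 99.1; aliquots 100%, 93.0% and 98.1%), Iglc2 led 4 and Iglc1 led 0, which allows up to 3.08% by the exact interval. Among 1542 other B cells of that age Igkc led 97.4% and Iglc1 1.30%. Only 30 of the 12-month members were of this kappa kind.

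In summed levels Iglc1 stood at 5679.2 CPM in 12-month members against 1488.9 in other B cells, a log2 ratio of 1.93 (1.89 to 1.97). By aliquot the members held 3801.1, 8274.5 and 5114.8 CPM and the other B cells 1542.3, 1282.5 and 1680.5. The median member held 29 Iglc1 UMIs and 99.0% held at least 1, against 4.95% of T cells, although the 5 highest cells held 33.8% of all member UMIs. Igkc was lower in the same cells, at 1360.7 against 5756.5 CPM (-2.08). At 20 months the Iglc1 ratio had the opposite sign, 282.5 against 782.3 CPM (-1.47, -1.64 to -1.30). Igkc at 20 months stood at 12195.0 against 22510.5 CPM (-0.88), but 1 cell held 6066 of the members' 12304 Igkc UMIs, and against other B cells with Zcwpw1 under 5 the ratio was 0.66. The direction of Igkc at 20 months thus rests on which B cells it is compared with.

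Iglc1 use at 12 months followed the Fras1 and Lmo7 count, including below the limit. Among SM/J B-lineage cells with Zcwpw1 under 5 and no Cd3e or Csf1r, Iglc1 led 5.37% of the 763 cells with a sum of 0 and at least 3 light chain UMIs. It led 48.3% of the 87 such cells with a sum of 1, 76.2% of the 80 with 2, and 94.6% of the 205 with 5 or more. Median depth moved along with the sum, from 3120.5 UMIs at 0 to 8109 at 5 or more, and its part was not tested. At 20 months no such order was seen: Iglc1 led 3.50% of 486 such cells at 0 and 0 of 64 at 5 or more, with medians of 4340 and 8171 UMIs. Conversely, the 157 Iglc1-led cells outside the rule at 12 months carried Fras1 at 193.8 CPM, with a UMI in 64.3% (101 cells).

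**Figure D3:**
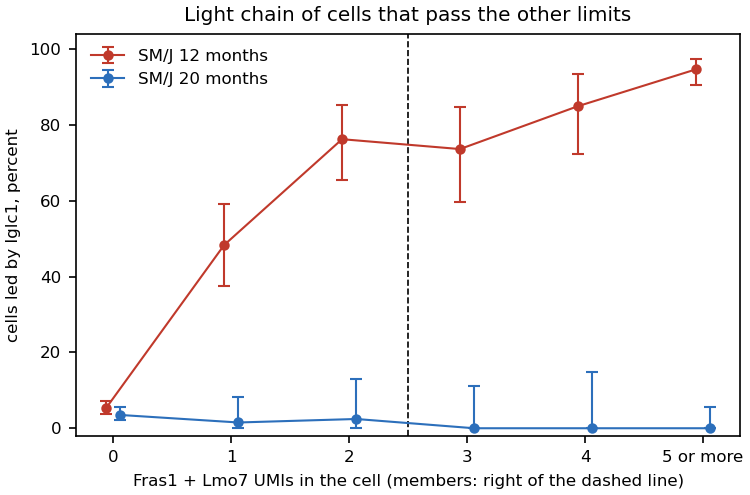
Percent of B-lineage cells led by Iglc1 against the sum of Fras1 and Lmo7 UMIs per cell, at 12 and 20 months, with exact 95% counting intervals. Points are offset slightly for sight, and the 12-month share goes from 5.37% at a sum of 0 to 94.6% at 5 or more while the 20-month share stays at or below 3.50%.

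The V segments of the 12-month members were few. Iglv2, from a separate V gene upstream of Iglc2 on the chromosome, gave 168 UMIs in 102 members (32.8%; aliquots 34, 32 and 36 cells), against 4.33% of other B cells and 0.450% of T cells. Its level was 68.1 against 12.5 CPM, a log2 ratio of 2.35 (2.02 to 2.89). Among the 278 Iglc1-led members Iglv2 made up 166 of 180 lambda V UMIs (92.2%), with 7 of Iglv1 and 7 of Iglv3. In textbook accounts Iglv1 is the usual partner of Iglc1 and Iglc3, and Iglv2 that of Iglc2. Reads from the 3' end do not cover the join, so which V segment was spliced to Iglc1 was not read.

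Heavy chain V segments of the Iglc1-led members were also concentrated. The Iglc1-led members gave 101 Ighv UMIs over only 7 segments: Ighv7-1 held 42 (41.6%, in 40 cells), Ighv14-1 held 40 (39.6%, in 36 cells) and Ighv14-4 held 15 (14.9%). Each of the first 2 was seen in every aliquot among all members (Ighv7-1 13, 19 and 12 UMIs; Ighv14-1 11, 17 and 13 UMIs). The Igkc-led other B cells of that library gave 233 Ighv UMIs over 70 segments, and their leading one, Ighv3-8, held 7.73%. Iglc1-led cells outside the rule gave 38 Ighv UMIs, of which Ighv14-1 held 17 and Ighv7-1 held 14, and 56 of their 69 lambda V UMIs were Iglv2. They thus led with the same V segments as the members.

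At 20 months this set was nearly gone from the members. Ighv7-1 gave 2 UMIs and Ighv14-1 gave 0. Iglv2 also gave 0 UMIs, and with a floor of 3 UMIs (2.97 CPM over the group) its level was at least 22.9-fold lower than at 12 months. Heavy chain UMIs were led by Ighv2-5 with 86 of 140, but 84 of these came from 1 cell. Ighv2-2 followed with 22 UMIs spread over 16 cells. Igkv2-109 gave 44 UMIs in 27 cells (22.9% of members, against 15.8% of other B cells). At 12 months it led the kappa V UMIs of Iglc1-led members (59 of 87) and of Igkc-led cells outside the rule (77 of 614). At 20 months Igkv10-96 gave 21 in 17 cells, whereas Igkv17-127 gave 90 UMIs with 86 in a single cell. Large single cells of this kind lay in 1 aliquot (CMO310), which also held the 36352.7 CPM peak of Igkc against 6143.6 and 6587.0 CPM in the other 2.

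Among heavy chain constant segments the members expressed mainly Ighm, the IgM chain, at 2787.9 CPM at 12 months and 5707.0 CPM at 20 months, against 2251.1 and 6472.0 CPM in other B cells (0.31 and -0.18). At 20 months a single cell held 2055 of the members' 5758 Ighm UMIs, and the 5 highest held 47.7%. The mean of each cell's CPM was 2717.2 in members at 12 months and 4301.6 at 20 months, against 2028.5 and 4765.5 in other B cells. Ighd, the IgD chain of mature follicular cells, was lower at 12 months, 105.0 against 347.5 CPM (-1.72, -1.92 to -1.54). At 20 months it stood at 64.4 against 46.4 CPM, and against the other B cells with Zcwpw1 under 5 (195.0 CPM) it was again lower, -1.58. Ighg3, the IgG3 chain, was 33.6 against 13.7 CPM at 12 months (1.24, 0.81 to 1.78) and 6.94 against 83.0 CPM at 20 months (-3.40), but only -0.85 against the other B cells with Zcwpw1 under 5. Igha, the IgA chain, was 8.10 against 210.7 CPM at 12 months (-4.54), with aliquot ratios from -5.61 to -0.42.

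Over all genes, most did not differ by 2-fold between members and other B cells. At 12 months 148 of 6723 genes with at least 100 UMIs over both groups were 2-fold or more higher in members (2.20%) and 427 were lower (6.35%). At 20 months 377 of 9232 were higher (4.08%) and 838 lower (9.08%). Against other B cells with Zcwpw1 under 5 the shares were 2.47% higher and 6.42% lower at 12 months, and 1.04% (56 of 5378) higher and 3.79% (204) lower at 20 months. The 20-month shares were thus smaller against that reference, in which fewer genes had enough UMIs. Members had no Cd3e or Csf1r by rule, and asking the same of the other B cells gave 265 lower genes at 12 months in place of 427. With TMM scaling, which shifted the median 20-month ratio by -0.15, 244 genes were higher and 1033 lower at 20 months, so that 19.1% rather than 31.0% of calls were higher.

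Of the 6629 genes tested at both ages, 28 were 2-fold higher and 97 lower at both, and 57 were 2-fold apart in opposite directions. By the stricter rule that every aliquot had to show the difference and at least 25% of cells had to hold a UMI, 12 genes were higher at both ages. Against the other B cells with Zcwpw1 under 5, all 12 passed 2-fold at 12 months and 8 at 20 months. At 12 months that reference holds 970 of the same 994 cells, so it adds no separate check.

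Fcrl5, an Fc receptor-like protein of innate-like and memory B cells that binds IgG, led the list by the smaller of its ratios at the 2 ages. In the 12-month aliquots the members held 165.6, 153.2 and 145.7 CPM and the other B cells 50.5, 31.9 and 32.0. At 20 months they held 117.4, 163.7 and 135.1 against 35.7, 33.4 and 40.9. Each member aliquot was above each aliquot of other B cells, but the gene was named by a 2-fold rule in every aliquot. The log2 ratios were 2.04 (1.81 to 2.33) and 1.94 (1.70 to 2.22), and 1.74 against Zcwpw1-low cells at 20 months. At an equal depth of 2000 UMIs per cell Fcrl5 was found in 26.4% of members against 4.02% of other B cells at 12 months, and 19.5% against 6.59% at 20 months. The same thinning found it in 0 of 220 and 0 of 139 T cells, where a floor of 3 cells with a UMI would be 1.36% and 2.16%. BL/6 B cells stood at 39.1 and 25.2 CPM. At 12 months Fcrl5 also differed by light chain. It stood at 165.7 CPM in Iglc1-led and 58.2 CPM in Igkc-led members, and at 117.9 CPM in Iglc1-led and 13.9 CPM in Igkc-led B cells outside the rule. At 20 months the Igkc-led members held 141.5 CPM.

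Zbtb20, a zinc finger repressor active in B-1 and plasma cells, was the most abundant of the 12. Members held 2450.3, 2691.5 and 2764.3 CPM in the 12-month aliquots against 1055.3, 961.1 and 980.9, and 1990.7, 1752.0 and 1594.6 CPM at 20 months against 646.1, 661.3 and 635.1. The aliquots of the groups did not overlap, which the naming rule largely fixed. The log2 ratios were 1.39 (1.34 to 1.45) and 1.42 (1.35 to 1.49). T cells held 523.2 and 423.8 CPM of Zbtb20, so this gene is broadly expressed. Thinned, it was found in 97.1% of members, 71.5% of other B cells and 55.0% of T cells at 12 months.

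Slamf7, a homotypic receptor of plasma cells and cytotoxic lymphocytes, stood at 116.7 against 33.5 CPM at 12 months (1.77, 1.52 to 2.09) and 115.0 against 13.9 CPM at 20 months (2.96, 2.73 to 3.37; 1.47 against Zcwpw1-low cells). Nt5e, the ecto-nucleotidase CD73 found on memory and B-1 cells, was 65.2 against 20.0 CPM and 60.5 against 8.53 CPM (1.66 and 2.69), but only 0.78 above Zcwpw1-low cells at 20 months. Cyp51, a sterol synthesis enzyme, had ratios of 1.69 and 1.57, but -0.16 at 20 months among cells with at most 5% mitochondrial UMIs. Slamf7 and Nt5e had near-equal levels in members of the 2 ages, so that their larger ratio at 20 months lay in the comparison group. Nod1, a sensor of bacterial peptidoglycan, had ratios of 1.42 and 2.00, and the ubiquitin hydrolase Uchl3 of 1.34 and 1.74. The sialyltransferase St3gal6 had 1.31 and 2.10, Atxn1, encoding ataxin-1, 1.53 and 1.09, and Hdgfl3, of the hepatoma-derived growth factor family, 1.53 and 2.57. The non-coding 2610035D17Rik had 1.52 and 3.22 and Gm36975 1.11 and 1.95. Against Zcwpw1-low cells at 20 months, Hdgfl3 (0.46), St3gal6 (0.89) and Atxn1 (0.92) were also under 2-fold.

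**Figure D4:**
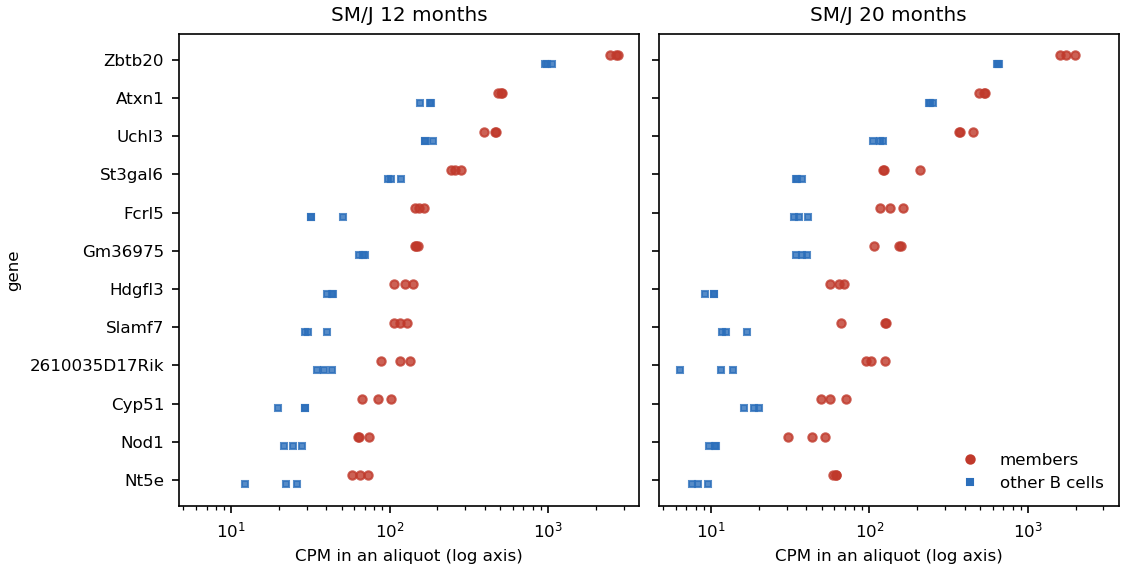
CPM by tagged aliquot, on a log axis, for genes that were 2-fold or more higher in members than in other SM/J B cells at both ages. The rule that named these genes required a 2-fold ratio in every aliquot, so member points lie above those of other B cells in each of the 6. Fcrl5, for example, ran at 117.4 to 165.6 CPM against 31.9 to 50.5 CPM.

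Only 2 genes were lower at both ages by the same rule, the lysozymes Lyz1 (-2.48 and -1.84) and Lyz2 (-2.30 and -1.41), near-identical copies whose counts cannot be separated with certainty. Both are monocyte transcripts, and the rule removes Csf1r-positive cells from members only. Against other B cells without Cd3e and Csf1r the ratios were -1.06 and -0.56 for Lyz1 and -0.88 and -0.23 for Lyz2, so that neither was 2-fold lower at 20 months.

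**Figure D5:**
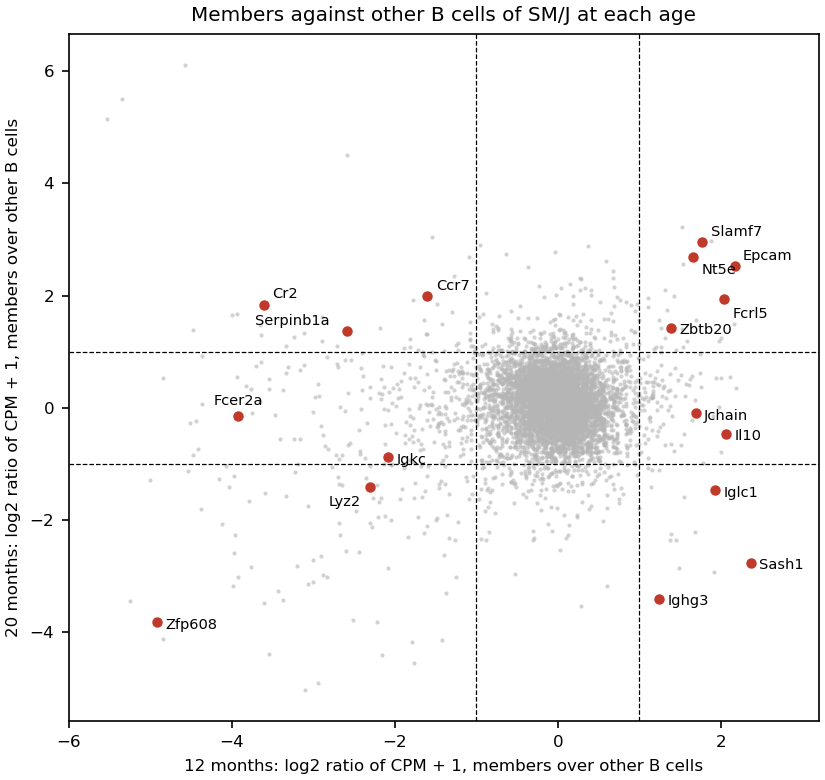
Log2 ratio of members to other B cells at 12 months against that at 20 months, over genes tested at both ages, with dashed lines at 2-fold and named examples in red. Genes higher in members at both ages lie in the upper right, and 57 of the 6629 genes were 2-fold apart in opposite directions.

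Several further genes were higher in the 12-month members; these examples were named after their values were seen and stand for no tested theme. Pigr, the receptor that carries polymeric immunoglobulin across epithelia, stood at 156.8 against 29.8 CPM (2.36, 2.12 to 2.68). Epcam, an epithelial adhesion molecule, was in 40.2% of members against 0.450% of T cells. Its aliquots were 75.4, 82.8 and 100.6 CPM against 28.0, 12.5 and 16.3 CPM in other B cells, with no overlap (2.17). The epithelial transcription factor Ehf was 47.8 against 6.45 CPM (2.71, 2.32 to 3.50), and Drd3, a dopamine receptor, 50.7 against 7.06 CPM (2.68). Il10, the anti-inflammatory cytokine made by regulatory B and B-1 cells, was 51.9 against 11.7 CPM (2.06, 1.69 to 2.62). Ackr3, a scavenging chemokine receptor, was 122.8 against 30.0 CPM (2.00, 1.74 to 2.32). Iglc1-led B cells outside the rule held these transcripts too. Epcam stood there at 69.5, Pigr at 111.5, Ackr3 at 86.9 and Il10 at 32.9 CPM, against 3.83, 6.01, 13.4 and 6.01 CPM in Igkc-led B cells outside the rule. Igkc-led members also held Epcam at 33.2, Pigr at 45.7 and Il10 at 20.8 CPM, whereas Ackr3 gave 1 UMI in them. In the 53 Iglc1-led B cells of BL/6 at 12 months Pigr stood at 23.7 CPM, and Epcam, Ackr3 and Il10 were under the 14.2 CPM that 3 UMIs would give. In BL/6 B cells at 12 months Pigr stood at 6.36, Ehf at 0.809 and Il10 at 3.12 CPM.

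At 20 months Epcam remained above the other B cells in sum (32.7 against 4.88 CPM), though its aliquot ratios ran from 0.64 to 2.60. Pigr was at 14.9 against 1.57 CPM on 15 UMIs, and Il10 at 24.8 CPM was below the 34.5 CPM of all other B cells and above the 6.66 CPM of those with Zcwpw1 under 5 (1.75). Among genes 2-fold higher at 20 and not at 12 months, also against Zcwpw1-low cells, were Map3k15, a stress kinase (115.0 against 14.7 CPM, 2.88; 1.91 against the low group), and Rev3l, the catalytic subunit of translesion polymerase zeta (427.2 against 77.9 CPM, 2.44 and 1.55). Slpi, a secreted protease inhibitor, had 2.68, but 0.67 against the low group.

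Among genes lower in the 12-month members Vpreb3, a chaperone of light chain assembly, stood at 5.27 against 135.3 CPM (-4.44, -5.60 to -3.90) and the transcription factor gene Zfp608 at 2.84 against 114.8 CPM (-4.92, -6.66 to -4.29). Satb1, a chromatin organiser, was at 7.29 against 170.8 CPM (-4.37) and Fcer2a, the low-affinity IgE receptor CD23, at 6.48 against 112.5 CPM (-3.92). At 20 months the lowest ratios were those of Gnb3, a G protein subunit (3.96 against 181.4 CPM, -5.20), and Fgl2, a fibrinogen-like effector (6.94 against 256.8 CPM, -5.02). Against Zcwpw1-low cells these were -0.90 and -2.41, so Gnb3 was a mark of the comparison cells.

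Lists of B cell genes were read by their counts, against 2.20% higher and 6.35% lower of all genes at 12 months, where the median ratio of all genes was -0.04. Of 11 tested B-1 genes, 4 were 2-fold higher (median 0.72): Il5ra, the interleukin-5 receptor chain (731.4 against 281.3 CPM, 1.38), the repressor Zbtb32 (1.17), the scramblase Plscr1 (1.30) and the tetraspanin Cd9 (1.24). Spn, encoding CD43 (-1.89), Bhlhe40 (-3.37) and the integrin Itgam (-2.28) from the same list were lower. Cd5, the classic surface marker of B-1a cells, stood at 16.2 against 5.04 CPM but on fewer UMIs than the 100 required. At 20 months 2 of the list's 11 were higher (Cd9 1.56, Spn 1.06) and 2 lower, and against Zcwpw1-low cells 0 of 10 were higher and 3 lower (Bhlhe40, Itgam and Apoe). Il5ra at 12 months was at 2.47 CPM in T cells and 107.6 CPM in BL/6 B cells.

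Of the 8 follicular B cell genes, 5 were lower at 12 months and 0 higher (median -1.66), among them Fcer2a, Ighd, the complement receptor Cr2 (3.24 against 50.8 CPM, -3.61) and the lymph node homing receptor Ccr7 (-1.60). At 20 months, where 4.08% of all genes were higher and 9.08% lower, 3 of the 8 were higher than in all other B cells (Cr2 1.84, Ccr7 1.99, Cd55 1.62). Against Zcwpw1-low cells (1.04% and 3.79% of all genes) 0 were higher and 3 lower, among them Fcer2a (-2.25) and Ighd (-1.58). Fcer2a and Ighd were thus low in members of both ages when the same kind of B cell was the reference. Of 14 homing and egress receptors 7 were lower at 12 months, including Cxcr4 (-1.65), Ccr6 (-1.61) and Gpr183 (-1.17).

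The age-associated B cell list gave 3 genes higher of 6 tested, at both ages and against both references: Fcrl5, Zbtb20 and the membrane protein gene Sspn (1.52 and 1.41). At 12 months the 2 references are nearly the same cells. The list's myeloid-type integrin Itgam was lower in all 4 comparisons and the transcription factor Zeb2 at 12 months (-2.12). Tbx21, which defines that class, had 0 UMIs in members at both ages, and Itgax had 3 and 0, against floors of 1.22 and 2.97 CPM. Neither defining gene of age-associated B cells was therefore detectable beyond the floor.

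Of 17 receptor signalling genes tested at 12 months, 0 were 2-fold higher and 1, Cr2, was lower (median -0.11). These counts were near the shares of all genes (2.20% higher and 6.35% lower) and set nothing apart. Of 10 inhibitors of that signalling 4 were lower: Cd22 (42.1 against 156.5 CPM, -1.87), the IgG receptor Fcgr2b (-2.94), Cd72 (-2.71) and Pirb (-1.40). At 20 months Cd72 (1.11) and Fcrla (1.04) were at least 2-fold higher than in all other B cells and Pirb was at least 2-fold lower. Against Zcwpw1-low cells 0 of the 10 were 2-fold higher and only Pirb was 2-fold lower. In the proto-oncogene list Myc stood at 160.5 against 72.6 CPM (1.13, 0.93 to 1.35) and the cell cycle driver Ccnd2 at 260.2 against 109.5 CPM (1.24, 1.08 to 1.42), and Notch2 was lower (-1.39). At 20 months Myc had ratios of -0.23 against all other B cells and -0.20 against Zcwpw1-low cells, and Ccnd2 of 0.40 and 1.40. Of 11 survival genes tested at 12 months the death-promoting Pmaip1 (1.20) and Bbc3 (1.15) were 2-fold higher and Bcl2a1b (-1.63) lower. At 20 months 1 of 12 was higher (Pmaip1) and 1 lower (Bcl2a1b). Against Zcwpw1-low cells 0 of 9 were higher there and 2 lower (Bcl2a1b and Bcl2l11).

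Division genes had low counts in members. At 12 months 4 of 16 were counted well enough, of which Top2a was 2-fold higher (30.8 against 7.46 CPM, 1.91; aliquots 0.76 to 3.18). Mki67, on under 100 UMIs, stood at 19.5 against 5.85 CPM and was found in 7.07% of members, 2.82% of other B cells and 3.15% of T cells, with 62.5% of its member UMIs in 5 cells. At 20 months, beside 9.08% of all genes lower, 12 of 16 were 2-fold lower than in all other B cells (median -2.48), but 0 of 3 against Zcwpw1-low cells (3.79% of all genes). Among plasma cell genes Jchain, which links IgM and IgA polymers, was 857.9 against 264.6 CPM at 12 months (1.69; aliquots 0.63 to 2.81) and 300.3 against 321.8 CPM at 20 months (-0.10). At 12 months it was found in 80.7% of members against 13.3% of other B cells and 2.70% of T cells. The 5 highest members held 43.3% of its UMIs. Of the 8 plasma cell genes tested at 20 months, 2 were 2-fold higher (Irf4 and Slamf7) and 2 lower, beside 4.08% and 9.08% of all genes. The lower ones were Xbp1 (-1.48) and Prdm1 (-1.28), which encode regulators of antibody secretion. Against Zcwpw1-low cells these stood at -0.31 and 0.28, and of 6 genes tested there 1 was higher (Slamf7) and 0 lower. Of 17 genes of the secretory pathway 0 were 2-fold apart at 12 months, and 1 (Creld2) was higher against Zcwpw1-low cells. At 20 months 2 were lower (Xbp1 and Creld2), and 0 were 2-fold apart against Zcwpw1-low cells. At the shares of all genes a list of 17 would hold few calls, so these counts set nothing apart.

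Few of the known partners of Fras1 and Lmo7 were counted well enough to compare. Of the Fras1 matrix complex, Frem1, Frem3 and Npnt gave 0 UMIs in members at either age, Frem2 gave 1 and 0, and Itga8 gave 1 and 5, where 3 UMIs are 1.22 and 2.97 CPM. Of that list only Itgb1, the shared beta-1 integrin, was counted well enough at 12 months, with 155.2 against 163.0 CPM (-0.07). At 20 months Itga8 and Itgb1 (-1.16) were lower than in all other B cells, and 0 of 1 tested was lower than in Zcwpw1-low cells. Of the junction partners of Lmo7, 0 of 5 tested at 12 months and 0 of 6 at 20 months were 2-fold apart, among them the adherens junction scaffold Afdn (0.71 and -0.78) and Ctnnb1, encoding beta-catenin. At the shares of all genes a list of 5 or 6 would hold under 1 call, so these counts of 0 set nothing apart. Cdh1, the epithelial cadherin, and the Lmo7 relative Limch1 gave 0 UMIs at both ages.

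Within the 12-month members the 278 Iglc1-led and 30 Igkc-led cells differed beyond the light chain. Of 3235 genes tested 133 were 2-fold higher in the Iglc1-led cells (4.11%) and 65 lower (2.01%), on 2208514 and 240649 UMIs. In the Igkc-led cells 3 UMIs equal 12.5 CPM. Ackr3 stood at 135.4 against 4.16 CPM, which is 1 UMI, and Grhpr, a glyoxylate reductase, at 194.2 against 12.5 CPM, which is 3 UMIs, so no ratio is given for them. Jchain stood at 944.1 against 133.0 CPM (2.82). The Igkc-led cells carried more of the calcium-binding S100a6 (2019.5 against 261.3 CPM) and of Cd22 (162.1 against 29.4 CPM). The genes of the rule stood in the Igkc-led cells at 241.0 against 768.8 CPM (Fras1) and 374.0 against 174.8 CPM (Lmo7). The kappa members of 20 months also held less Fras1 and more Lmo7 than the Iglc1-led cells. Because a member needs 3 UMIs of the 2 genes together, a cell with little Fras1 had to hold Lmo7 to pass. These levels are therefore a description only. Of the 126 genes higher in Iglc1-led members with a UMI in at least 25% of them, 105 were higher and 32 were 2-fold higher also in Iglc1-led than in Igkc-led cells outside the rule, where 123 of all 3235 were 2-fold higher. The share of all genes that were higher at all there was not counted, so the 105 cannot be read against it.

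Between ages within the members, 84 of 4274 genes were 2-fold or more higher at 20 months (1.97%) and 67 lower (1.57%). With TMM scaling these were 67 and 82, so that 45.0% rather than 55.6% of calls were higher. Because 278 of the 12-month members were Iglc1-led and none at 20 months were, the comparison was repeated in Igkc-led members alone. Of the 84 higher genes 68 kept their direction there and 24 were still 2-fold. Of the 67 lower ones 53 kept it and 20 were still 2-fold. At 20 months the Igkc-led cells are 114 of the 118 members, so the 2 comparisons share most of their 20-month cells. Many of these genes have few UMIs in so few cells. Only 56 and 10 of the genes reached 100 UMIs in the Igkc-led members, and of those 17 were 2-fold higher and 1 was 2-fold lower. Light chain class and age cannot be told apart for the rest, since only 30 of the 12-month members used Igkc.

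Of the genes with a UMI in at least 25% of members and past 2-fold in every pair of aliquots, Slpi had the largest ratio, at 25.5 CPM at 12 and 429.2 CPM at 20 months (4.02, 3.69 to 4.48). It was also higher at 20 months in other B cells with Zcwpw1 under 5 (58.6 and 268.8 CPM) and in monocytes (250.4 and 2264.8 CPM), so it was not particular to members. Egr1, an immediate early gene, was at 9.73 and 128.8 CPM (3.60, 3.09 to 4.42), against 1.38 in Zcwpw1-low B cells. Serpinb1a, an elastase inhibitor, was at 19.0 and 195.3 CPM (3.29, 2.89 to 3.85), against 0.37 in Zcwpw1-low B cells. S100a6 had a ratio of 2.63 in all members and 0.41 in the Igkc-led alone.

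By the same rule Def8 had the lowest ratio. It gave 159.3 CPM at 12 months and 0.991 CPM, a single UMI, at 20 months (-6.33, -12.64 to -4.84). The gene was also lower at 20 months in the other SM/J classes measured: Zcwpw1-low B cells held 98.2 and 4.26 CPM, T cells 28.0 and 10.4 CPM and monocytes 145.9 and 12.8 CPM. BL/6 B cells held 3.12 and 3.97 CPM. Pigr (156.8 and 14.9 CPM, -3.31), Grhpr (175.1 and 12.9 CPM, -3.66) and Sash1, a signalling scaffold (-3.72), were also lower. In Igkc-led members alone Sash1 (-2.92) and Pigr (-1.52) stayed 2-fold lower while Grhpr (0.08) and Pawr (0.08; -2.54 in all members) did not, all on under 100 UMIs. Of the 84 and 67 genes, 10 and 17 were also 2-fold apart in the same direction in Zcwpw1-low B cells, where 19 and 26 of all 4274 were.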

How the data were processed

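The authors deposited filtered matrices of raw UMI counts per gene and cell, made with Cell Ranger 7.0.1 per the file headers, with genome mm10 and Seurat 4.3.0 listed in the submitters' processing notes; earlier filters: not given in the sources used here. Of 3551, 3272, 2580 and 2896 deposited cells, 3439, 3144, 2428 and 2710 were kept. CMO tag counts assigned aliquots. UMIs were summed over members and over other B cells of each library with at least 100 UMIs over both groups, and scaled to CPM. A gene was called at a log2 ratio of 1 or -1 with 1 CPM added. No test was run, because each strain and age is 1 library. The members and lists were chosen with earlier results of these data known.

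Genes were named as higher or lower if 2-fold in both SM/J libraries and in every aliquot with at least 20 members and 20 other B cells, with a UMI in at least 25% of members (higher) or other B cells (lower), up to 15 and 10 genes; up to 8 each way between ages and up to 12 between light chain classes. Rule genes, mitochondrial, sex-linked and immunoglobulin genes were left out. Other genes were named after their values were seen, and a few items are not reported here. The ratio script was tested on simulated data. Symbols followed the files, and 32158 of 32285 identifiers (99.6%) matched GENCODE M21. Doublets were called with Scrublet (scanpy 1.11.5, expected rate 0.06) and kept in the main results. Python 3.11.15, numpy 2.4.6, scipy 1.17.1 and pandas 2.3.3 were used, and edgeR 4.0.16 (R 4.3.3) for TMM scaling only. Alternatives were other limits for Fras1 and Lmo7, mitochondria and UMIs, other reference cells, scalings and pseudocounts, doublets left out, thinning, and each aliquot left out.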

Additional observations from a re-analysis of the deposited data

Results flagged for a closer look

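In the 7 genes below, every aliquot of members was above the other B cells at one age and below them at the other, so that the ratio had opposite signs; the difference between the ages was not tested. The log2 ratios of members to other B cells at 12 and 20 months were -2.59 and 1.37 for Serpinb1a, -3.12 and 1.33 for Gm8369 and 2.37 and -2.76 for Sash1. They were -3.61 and 1.84 for Cr2, -1.60 and 1.99 for Ccr7, 1.24 and -3.40 for Ighg3, and 1.93 and -1.47 for Iglc1. The reference cells differ between the ages. Against other B cells with Zcwpw1 under 5 at 20 months, Sash1 stayed 2-fold lower (-2.41). The other values there were 0.28 for Serpinb1a, -0.31 for Gm8369, -0.34 for Cr2, -0.20 for Ccr7, -0.85 for Ighg3 and -0.83 for Iglc1. Of the 57 genes that were 2-fold apart in opposite directions over all cells, 6 were so against that reference.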

How the results depend on the processing

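The member share (12.8% and 4.35%) was 8.44% and 2.36% with 5 or more Fras1 and Lmo7 UMIs, 16.1% and 5.87% with 2 or more, 2.90% and 1.10% with at most 5% mitochondrial UMIs, 3.02% and 1.06% after thinning, 7.45% and 3.54% with Lmo7 required, and 13.0% and 10.7% with no Zcwpw1 limit. Higher and lower genes at 12 months (148 and 427) numbered 352 and 1007 with 20 or more UMIs, 232 higher by the mean of each cell's CPM, and 265 lower without Cd3e or Csf1r cells. At 20 months (377 and 838) they numbered 56 and 204 against Zcwpw1 under 5, 682 and 1664 with 20 or more UMIs, and 170 and 257 with 10 CPM added. The higher ones also numbered 225 at most 5% mitochondrial UMIs, 244 with TMM and 248 by the mean of each cell's CPM. Between ages (84 higher, 67 lower) there were 338 and 375 with 20 or more UMIs, 42 and 4 in Igkc-led members, 14 higher at most 5% mitochondrial UMIs and 42 lower with 10 CPM added.

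Iglc1 led 94.6% of 12-month members (89.4%) with 5 or more UMIs and 73.9% at most 5% mitochondrial UMIs, where Igkc led 100% at 20 months (96.6%). Thinned to 1000 UMIs, Fcrl5 was in 14.1% and 11.9% of members (26.4% and 19.5% at 2000) and Zbtb20 in 86.8% and 77.1% (97.1% and 94.9%). Of 798 alternative values of 52 gene results, 5 changed sign: Cyp51 at 20 months (-0.16 at most 5% mitochondrial UMIs), Igkc at 20 months (0.63 there and 0.66 against Zcwpw1 under 5), and Grhpr and Pawr between ages (0.08 each in Igkc-led members). The 52 cover only the genes named by rule at both ages or between ages, and Iglc1, Igkc and Iglv2. Ratios outside them were less stable in places: Gm8369, Cr2, Ccr7 and Il10 changed sign at 20 months against Zcwpw1 under 5. The cause was not tested, except that looser UMI limits test more genes and stricter ones leave fewer cells.

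Leaving out 1 aliquot gave shares of 11.8% to 13.3% and 3.70% to 4.89%, Iglc1 in 87.9% to 91.0%, Igkc in 95.5% to 98.7%, 126 to 134 higher and 306 to 356 lower genes at 12 months, 300 to 438 and 745 to 851 at 20 months, and 61 to 91 and 45 to 92 between ages. No paired analysis was possible because each strain and age is 1 library and the aliquots are not known to be animals; ratios within aliquots are given as values. The mean of each cell's CPM, the Igkc-led members, other B cells not led by Iglc1, the Lmo7 requirement and dropping the Zcwpw1 limit were chosen after seeing the data.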
